A study of Mus musculus with 11 samples.

Results

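The HoxD cluster is a run of 9 homeobox genes on mouse chromosome 2, and binding of the chromatin protein Smchd1 along it was read from 2 deposited peak lists. The members, Hoxd1, Hoxd3, Hoxd4, Hoxd8, Hoxd9, Hoxd10, Hoxd11, Hoxd12 and Hoxd13, were taken by name from the RefSeq table of mm10. They are 9 of the 39 Hox genes and of 21779 coding genes in that table. A peak counted for a gene when it lay in the gene's span or within 5 kb of it. The cluster was measured from the first base of Hoxd13 to the last base of Hoxd1, from 74668225 to 74765142, a length of 96918 bp.

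An anti-GFP antibody was used to pull down Smchd1 from neural stem cell lines of C57BL/6 embryos (E14.5), kept for up to 20 passages and cross-linked with formaldehyde. The 11 libraries formed 6 groups. For sonication, applied for 30 min, there were 2 libraries from female cells homozygous for the Smchd1 GFP fusion knock-in allele, 2 from female Smchd1 wild-type cells and 2 of whole cell extract from female cells. For micrococcal nuclease (MNase), which digests the DNA between nucleosomes, there was 1 male and 1 female library each of homozygous knock-in and of wild-type cells, and 1 female library of whole cell extract. The antibody recognises the tag, so wild-type cells, which lack it, show what the pull-down gives without the tagged protein. Each experiment was given as 1 list of peak positions over all of its libraries, with no height, score or read count. No value per library is therefore shown, the depth and the spread between replicates are unknown, and no comparison below has a test. How the wild-type and extract libraries were used in making the lists is not stated in the labels or headers. Gene expression was not measured in these files, so the cell type was not checked against its markers.

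Hox genes encode transcription factors that give cells their position along the body axis and the limbs. Within a cluster they lie in the order in which they act, with the posterior genes (Hoxd13 and its neighbours) at one end and the anterior genes (Hoxd1) at the other. In cells that do not use them, Hox clusters are typically kept silent by Polycomb group proteins over broad stretches of chromatin. Smchd1 belongs to the SMC family, whose members shape chromosomes, and is known for its part in X inactivation and in the silencing of certain autosomal gene clusters.

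MNase peaks lay at 8 of the 9 Hoxd genes, all but Hoxd1, where 5.28% of all coding genes had such a peak within 5 kb. Sonication peaks lay at 5, Hoxd11, Hoxd10, Hoxd9, Hoxd8 and Hoxd3, where 3.38% of all coding genes had one. Those 5 genes had peaks of both lists, which 0.753% of coding genes did. The cluster held 26 MNase peaks, 13.1% of the 198 on chromosome 2, and they covered 70.1% of its length. It held 5 sonication peaks, covering 4.64%. The 26 MNase peaks measured 600 to 12900 bp with a median of 1875 bp, and each was wider than the median of its whole list, 450 bp. Peak width is in steps of 150 bp and reflects how the list was made as well as the extent of binding. The map of peaks along the cluster shows the near-continuous MNase peaks of the posterior genes and the few sonication peaks within them.

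**Figure D1:**
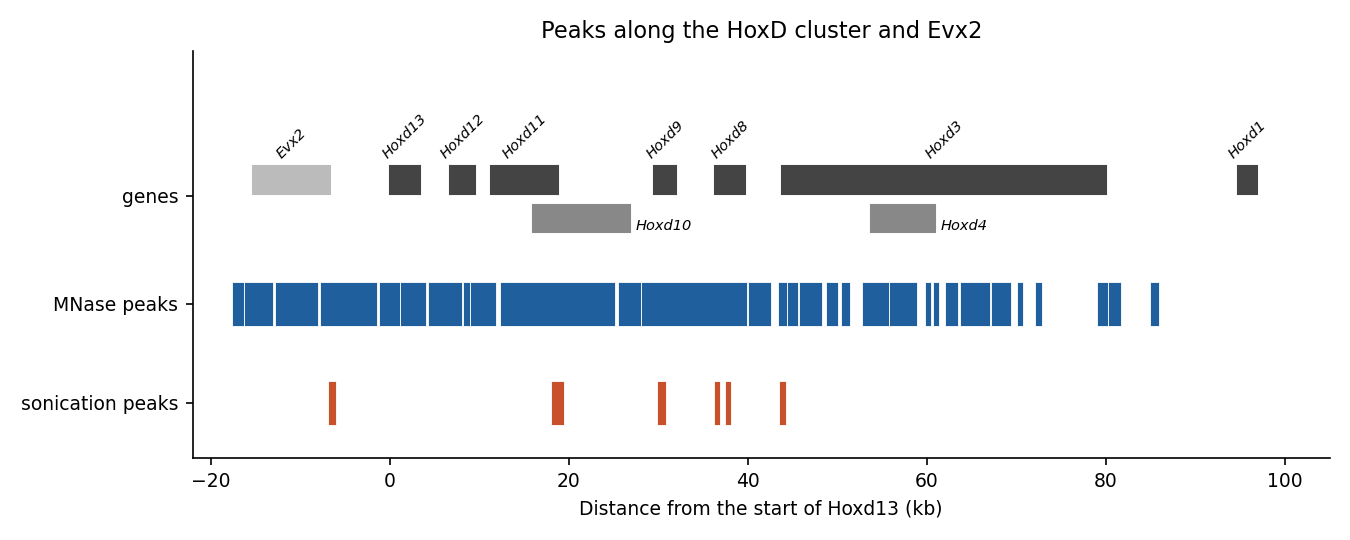
Peaks of the MNase list (blue) and the sonication list (orange) drawn to scale along the HoxD cluster, with gene spans above; the horizontal axis is the distance in kb from the start of Hoxd13, and Hoxd10 and Hoxd4 are set lower because their spans overlap a neighbour's. The last MNase peak ends 8.83 kb before Hoxd1, and the last sonication peak lies at the start of Hoxd3.

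Promoters of the Hoxd genes were compared by their sequence and their peaks. A promoter here is the 250 bases before and the 50 bases from the gene start in the RefSeq promoter table of the same assembly (GRCm38.p6, which is mm10). The table matched all 9 genes and gave 10 promoters, 2 of them for Hoxd11, all on the plus strand. MNase peaks covered 9 of the 10 promoters over all 300 bases, and 0 bases of the promoter of Hoxd1. Of 32851 promoters in the table, 0.858% were overlapped by an MNase peak. Sonication peaks overlapped 2, that of Hoxd3 over all 300 bases and that of Hoxd8 over 164, where 0.0761% of all promoters were overlapped. The 5 promoters printed here run from the posterior to the anterior end and show the 3 patterns, MNase peak alone, both lists and neither. They are written 5′ to 3′ on the plus strand, with the CG dinucleotides, where DNA methylation acts, in capitals.
Hoxd13: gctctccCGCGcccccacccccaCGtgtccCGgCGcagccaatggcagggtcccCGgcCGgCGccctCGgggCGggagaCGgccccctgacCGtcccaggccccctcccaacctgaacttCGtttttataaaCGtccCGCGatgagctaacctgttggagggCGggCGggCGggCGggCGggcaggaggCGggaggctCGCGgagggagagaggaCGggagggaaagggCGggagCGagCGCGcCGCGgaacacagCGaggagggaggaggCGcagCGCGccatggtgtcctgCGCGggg
Hoxd10: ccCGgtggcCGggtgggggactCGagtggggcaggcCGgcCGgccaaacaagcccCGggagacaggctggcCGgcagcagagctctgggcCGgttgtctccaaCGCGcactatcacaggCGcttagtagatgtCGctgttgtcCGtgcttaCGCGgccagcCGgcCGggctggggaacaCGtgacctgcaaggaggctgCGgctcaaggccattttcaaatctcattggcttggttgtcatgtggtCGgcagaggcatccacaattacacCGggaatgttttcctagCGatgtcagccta
Hoxd9: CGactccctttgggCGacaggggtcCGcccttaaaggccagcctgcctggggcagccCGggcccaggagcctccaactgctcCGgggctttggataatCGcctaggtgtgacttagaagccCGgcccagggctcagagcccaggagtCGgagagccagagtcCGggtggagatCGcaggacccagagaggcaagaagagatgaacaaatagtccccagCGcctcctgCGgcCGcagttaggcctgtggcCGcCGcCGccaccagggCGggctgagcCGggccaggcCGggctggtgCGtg
Hoxd3: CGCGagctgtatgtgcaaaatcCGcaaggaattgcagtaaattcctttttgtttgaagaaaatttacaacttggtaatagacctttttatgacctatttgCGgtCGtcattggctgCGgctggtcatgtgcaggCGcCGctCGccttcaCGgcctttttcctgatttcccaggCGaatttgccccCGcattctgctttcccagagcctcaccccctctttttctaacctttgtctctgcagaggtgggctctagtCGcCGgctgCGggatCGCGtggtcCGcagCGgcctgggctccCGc
Hoxd1: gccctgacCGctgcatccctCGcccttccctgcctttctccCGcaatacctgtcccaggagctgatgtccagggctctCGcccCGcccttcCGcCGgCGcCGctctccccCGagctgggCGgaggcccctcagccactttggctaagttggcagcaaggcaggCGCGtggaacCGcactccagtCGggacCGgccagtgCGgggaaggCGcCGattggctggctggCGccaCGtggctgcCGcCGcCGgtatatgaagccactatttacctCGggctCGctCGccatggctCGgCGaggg
The promoter of Hoxd13 is at chr2:74667975-74668274, that of Hoxd10 at chr2:74691641-74691940 and that of Hoxd9 at chr2:74697513-74697812. The promoter of Hoxd3 is at chr2:74711743-74712042 and that of Hoxd1 at chr2:74762730-74763029. Those of Hoxd13, Hoxd10 and Hoxd9 lay in MNase peaks alone, that of Hoxd3 in peaks of both lists, and that of Hoxd1 in neither.

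The promoter without a peak was among the richest in CG. Hoxd13 had 37 CG dinucleotides and Hoxd1 had 29, the 2 highest counts of the 10 promoters. The lowest, 4, were at Hoxd4 and at the upstream promoter of Hoxd11, which both lay in MNase peaks. Hoxd8 had 6, Hoxd12 13, Hoxd9 and Hoxd3 20 each, Hoxd10 22 and the downstream promoter of Hoxd11 25. The median was 20 over the Hoxd promoters and 7 over all promoters of the table. Over the 282 promoters of the table with an MNase peak it was also 20, and over the 32569 with none it was 7. Of all promoters, 12.9% had at least as many CG as that of Hoxd1 and 5.58% at least as many as that of Hoxd13. The plot of CG counts by promoter shows these values. Only the Hoxd1 promoter had no peak, so a link of CG count to peaks was not tested among the Hoxd promoters.

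**Figure D2:**
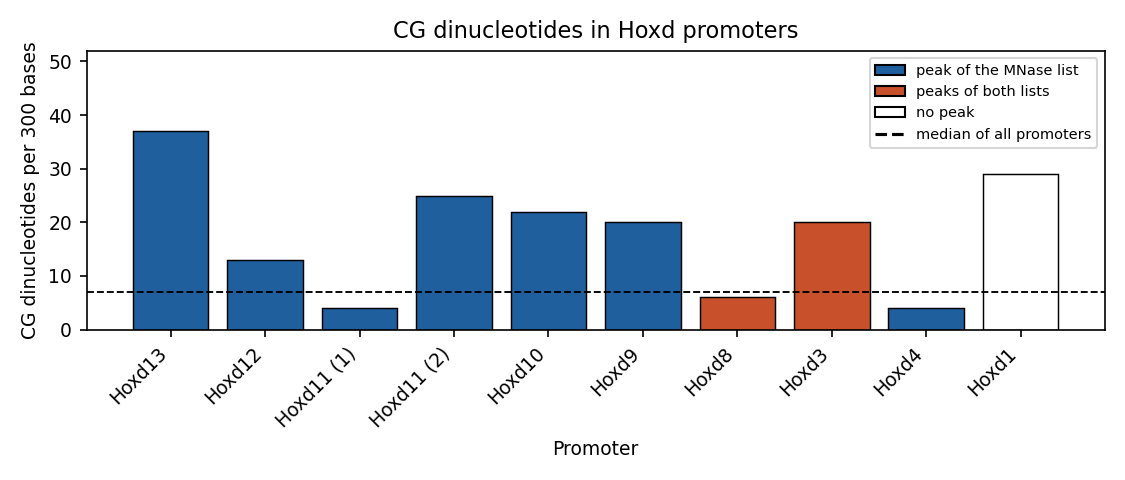
Number of CG dinucleotides in each 300-base promoter of the 9 Hoxd genes, ordered from posterior to anterior, with the 2 promoters of Hoxd11 numbered; the colour gives the lists with a peak there and the dashed line the median of all promoters. Hoxd1, the only Hoxd promoter here with no peak, has 29 CG, above all but Hoxd13.

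Other short motifs were searched on both strands. CCCTC or its reverse complement, letters found at the core of many sites of the insulator protein CTCF, was present in 4 of the 10 Hoxd promoters (Hoxd13, Hoxd12, Hoxd3 and Hoxd1) and in 66.0% of all promoters. TAAT or its reverse complement, the core that homeobox proteins recognise, was in 7 of 10 and in 58.0% of all promoters. It was absent from the windows of Hoxd13, Hoxd4 and Hoxd1. CCCTC had 6 matches at Hoxd13, which lay in an MNase peak, and 3 each at Hoxd12, which did too, and at Hoxd1, which did not.

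The genes from Hoxd13 to Hoxd8 lay almost wholly in MNase peaks. From the start of Hoxd13 to the end of Hoxd8, a stretch of 39.7 kb, 97.0% of bases were in 8 peaks. From there to the end of Hoxd3, over 40.3 kb, 66.2% were covered. From the end of Hoxd3 to the end of Hoxd1, over 16.9 kb, 16.2% were covered. The 8 peaks that began before the end of Hoxd8 had a median width of 2850 bp and a range of 750 to 12900 bp. The other 18 had a median of 1275 bp and a range of 600 to 3300 bp. Coverage was thus lower in each of these 3 parts than in the one before, and their bounds were not set in advance. It did not fall from each gene to the next: the plot of covered shares by gene and stretch shows Hoxd12 and Hoxd11 below Hoxd10, Hoxd9 and Hoxd8. Hoxd4 lies inside the span of Hoxd3, so that pair gives no order.

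Hoxd13, needed for digits and the genital bud, lay in MNase peaks over its whole span of 3379 bp, from 74668225 to 74671603. Peaks of 2400 and 2850 bp that adjoined without a gap covered it, and 5 peaks lay within 5 kb. Hoxd12, a limb gene beside it, was covered over 94.4% of 2693 bp, also with 5 peaks. Its uncovered bases were a gap of 150 bp between a peak of 3750 bp, from 74672551 to 74676300, and one of 750 bp. Neither gene had a sonication peak within 5 kb. The nearest to Hoxd13 lay 6025 bp before it, on the side of Evx2, and the nearest to Hoxd12 was 8496 bp away.

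Hoxd11, which acts with its HoxA counterpart in the forearm and kidney, was covered over 94.0% of 7459 bp by MNase peaks. Hoxd10, a gene of lumbar motor neurons and the hindlimb, was covered over 97.2% of 10834 bp. Their RefSeq spans overlap by 2744 bp, so they share peaks and are not separate observations. The widest MNase peak of the cluster, 12900 bp from 74680501 to 74693400, overlapped both and held the downstream start of Hoxd11 and the start of Hoxd10. It ranked number 4 by width among the 2840 peaks of the list. Its upstream neighbour, of 2850 bp, held the upstream start of Hoxd11. The span of Hoxd10 begins 7618 bp before the start in the promoter table, and from that start onwards 90.7% of 3216 bp was covered.

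The widest sonication peak of the cluster lay in the same place. It was 1500 bp wide, from 74686201 to 74687700, and ranked number 6 among 2196 sonication peaks. It overlapped the end of Hoxd11 by 816 bp and lay wholly in the Hoxd10 span. It held no start of the promoter table and lay 3878 bp after the downstream start of Hoxd11 and 4191 bp before that of Hoxd10. The RefSeq span of Hoxd10 begins nearer to it, at 74684273. Sonication coverage was 10.9% of Hoxd11 and 13.8% of Hoxd10, from this peak alone.

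Hoxd9, which acts with other group 9 genes in the lumbar region, and Hoxd8, a gene of the trunk, were covered over their whole spans by the same MNase peak. It was 11850 bp wide, from 74696251 to 74708100, number 5 by width in its list, and held both gene starts. Hoxd9 is 2446 bp long and Hoxd8 is 3319 bp long. The stretch of 4.41 kb between them was also covered over 100%. With Hoxd13, these were 3 of only 9 coding genes in the genome whose whole span lay in MNase peaks (0.0413%). Of the 9, 8 were Hox genes, and those outside HoxD were all in HoxA (Hoxa4, Hoxa5, Hoxa7, Hoxa9 and Hoxa11). Of the 41 coding genes (0.188%) with at least 50% of their span covered, 27 were Hox genes. HoxA had 10 of the 27, and 8 were the Hoxd genes other than Hoxd1. Short genes are more easily covered in full: 13.4% of coding genes are no longer than Hoxd9.

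Sonication peaks covered a larger share of the spans of Hoxd9 and Hoxd8 than of any other coding gene in the table. Both genes are short: 13.4% of coding genes are no longer than Hoxd9 and 16.8% no longer than Hoxd8. A peak of 1050 bp, from 74698051 to 74699100, lay 288 bp after the start of Hoxd9 and covered 42.9% of the gene. At Hoxd8, 2 peaks of 600 bp covered 32.7%, close to the 32.4% of Hoxa11 in HoxA. The peak from 74704501 to 74705100 held the start of the gene and the peak from 74705701 to 74706300 lay 1086 bp after that start. In peaks within 5 kb, Hoxd8 had 3 and ranked number 14 among coding genes, level with others. Of all sonication peaks, 1.14% were at least as wide as the Hoxd9 peak and 13.4% at least as wide as those of Hoxd8.

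**Figure D3:**
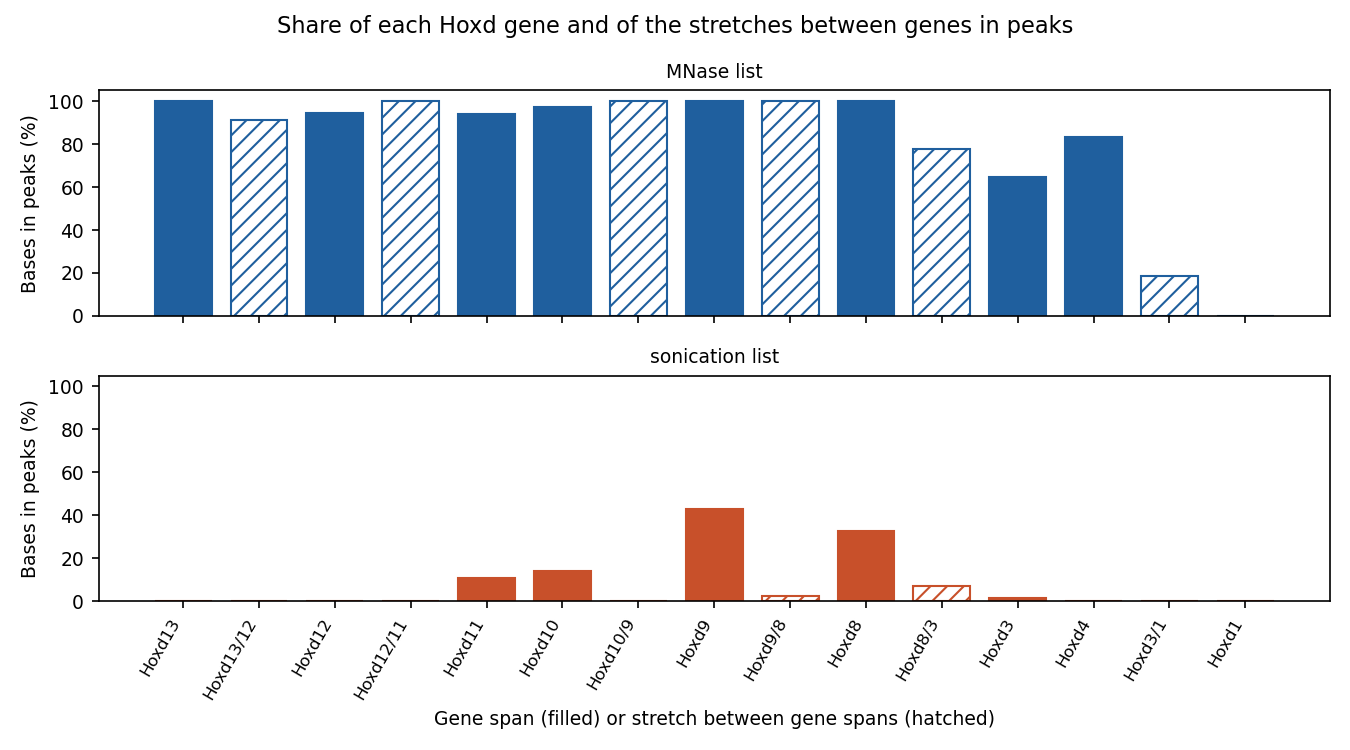
Percent of bases in MNase peaks (top) and sonication peaks (bottom) for each Hoxd gene span (filled bars) and each stretch between gene spans (hatched bars), in genomic order from Hoxd13 to Hoxd1; Hoxd11 overlaps Hoxd10 and Hoxd4 lies inside Hoxd3, so these pairs have no stretch between them. MNase coverage is at least 91.2% for every gene and stretch up to Hoxd8, 64.9% for Hoxd3 and 0% for Hoxd1.

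Hoxd3 and Hoxd4, genes of the neck vertebrae, had broken MNase coverage. Hoxd3 has the longest span of the cluster, 36279 bp from 74711993 to 74748271, and Hoxd4 lies inside it from 74721978 to 74729160. The peaks of Hoxd4 are thus also peaks of Hoxd3. Hoxd3 had 19 MNase peaks within 5 kb, a number that ranked 2 among coding genes, and 64.9% of its span was covered. The count was not particular to Hoxd3: its paralogues Hoxb3 and Hoxa3 had 21 and 17. Long genes have more room for peaks, and 70.2% of coding genes are no longer than Hoxd3. Of the part before Hoxd4, 77.5% was covered, and of the part after Hoxd4, 51.3%. Hoxd4 had 8 peaks within 5 kb and 83.3% of 7183 bp covered, with a 3000 bp peak from 74721001 to 74724000 over its start. The widest peak of Hoxd3 was 3300 bp, from 74731951 to 74735250, after the end of Hoxd4.

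The start of Hoxd3 was the most anterior place with peaks of both lists. A sonication peak of 750 bp, from 74711701 to 74712450, lay wholly in an MNase peak of 1050 bp there. This sonication peak covered 1.26% of the Hoxd3 span and the whole promoter. Hoxd4 had no sonication peak within 5 kb, the nearest being that same peak, 9528 bp away.

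Hoxd4 and Hoxd3 also contain Mir10b, which makes a microRNA, a short RNA that lowers its target mRNAs. Its hairpin of 68 bases, from 74726070 to 74726137, lay wholly in the 3150 bp MNase peak from 74724001 to 74727150 and in no sonication peak. Its main mature strand is printed because this covered stretch of the cluster includes its gene, with the seed (bases 2 to 8, which pair with targets) in capitals.
mmu-miR-10b-5p: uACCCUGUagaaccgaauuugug
The sequence is from RefSeq, at chr2:74726074-74726096 on the plus strand.

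Hoxd1, known in the mouse for the wiring of pain-sensing neurons, was the member with no peak in either list. It spans 2163 bp, from 74762980 to 74765142. The nearest MNase peak, of 1050 bp, ended 8830 bp before it, so a flank of 10 kb in place of 5 kb would count all 9 genes. The nearest sonication peak was 50530 bp away. Hoxd9, which lay wholly in an MNase peak, is 2446 bp long, and a link of gene length to peaks was not tested.

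Stretches between the posterior genes were also mostly in MNase peaks, and the stretch before Hoxd1 was the least covered. From posterior to anterior, MNase peaks covered 91.2% of the 3409 bp between Hoxd13 and Hoxd12 and 100% of the 1852 bp between Hoxd12 and Hoxd11. Between Hoxd10 and Hoxd9, 100% of 2656 bp was covered, and between Hoxd8 and Hoxd3, 77.8% of 4059 bp. Between Hoxd3 and Hoxd1, the longest stretch at 14.7 kb, 18.6% was covered. Over the cluster, 76.0% of bases in gene spans and 57.6% of bases between them lay in MNase peaks. Sonication peaks covered 6.22% of gene spans and 1.31% of the stretches between them, 114 bp before Hoxd8 and 292 bp before Hoxd3.

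The uncovered bases were gathered at the anterior end. The cluster had 20 stretches without an MNase peak, which added up to 28992 bp. The longest, 11.0 kb from 74754151, included all of Hoxd1 and reached the end of the cluster. The next, 6.15 kb from 74741101 to 74747250, lay near the end of Hoxd3, and the one after it, 3.15 kb from 74749951, lay between Hoxd3 and Hoxd1. The longer 2 of these 3 made up 59.1% of the uncovered bases. Of the 20, 11 were no longer than 450 bp.

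All 5 sonication peaks of the cluster lay wholly in MNase peaks. In the whole sonication list, 49 of 2196 peaks (2.23%) overlapped an MNase peak. Of the 26 MNase peaks of the cluster, 3 (11.5%) held a sonication peak, compared with 47 of 2840 (1.65%) in the whole list. The 3 were the 12900 bp peak at Hoxd11 and Hoxd10, the 11850 bp peak at Hoxd9 and Hoxd8, which held 3 sonication peaks, and the 1050 bp peak at the start of Hoxd3. MNase peaks covered 70.1% of the cluster, and 97.0% from the start of Hoxd13 to the end of Hoxd8, where 4 of the 5 sonication peaks lay. A peak placed there would nearly always overlap one, so the 5 of 5 says little on whether the lists match. A wide peak also has more room for an overlap, and neither point was allowed for. Of the 5 sonication peaks, 2 held a gene start. The lists differ in fragmentation and in the sex of the cells, which cannot be told apart here.

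Peaks ran past the posterior end of the cluster and stopped before the anterior end. In the 20 kb before Hoxd13, 5 MNase peaks covered 84.9% and 1 sonication peak covered 4.50%. The last of the 5, from 74667001 to 74669400, runs over the start of Hoxd13 and is also counted among the peaks of the cluster. This region holds Evx2, a homeobox gene of the limb and nervous system, with 94.7% of its 8532 bp in MNase peaks and a sonication peak of 900 bp that overlapped its edge. From 20 to 250 kb before Hoxd13 there was no peak of either list, and none in the 250 kb after Hoxd1. The next peaks on that side were 269.8 kb away in the sonication list and 372.3 kb away in the MNase list. The plot of coverage in 5 kb bins shows both edges.

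**Figure D4:**
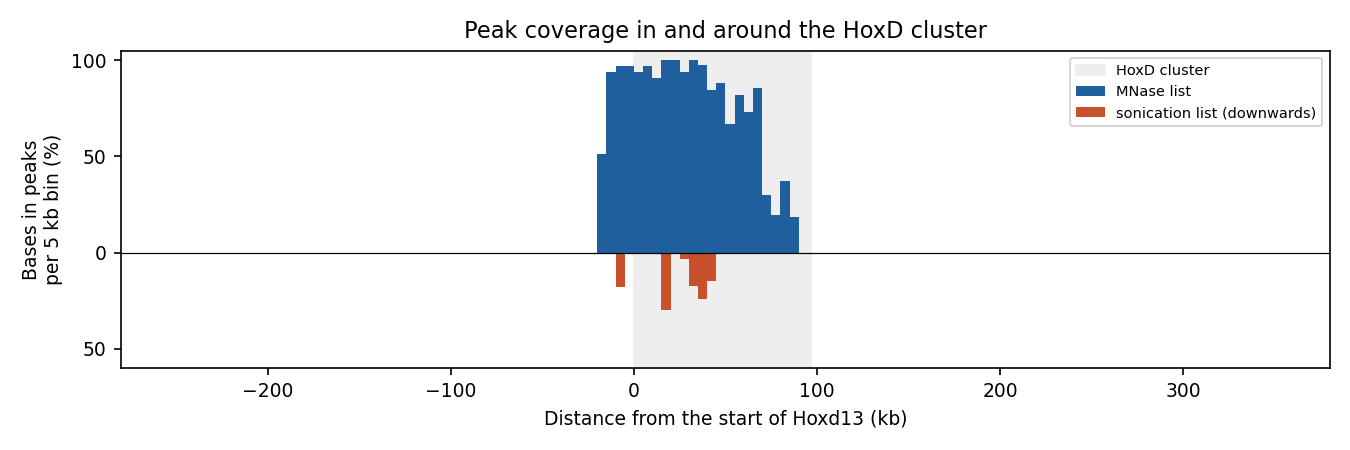
Percent of bases in MNase peaks (upwards) and sonication peaks (downwards) in bins of 5 kb, plotted against the distance in kb from the start of Hoxd13; the grey band is the HoxD cluster. MNase peaks cover 70.1% of the cluster and 84.9% of the 20 kb before it, and thin out towards Hoxd1. Sonication peaks cover 4.64% and 4.50% of the same stretches. Neither list has a peak in the rest of the region drawn.

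Genes beside and inside the cluster were taken from a list of 9, of which 8 were found in the RefSeq table by name. MNase peaks lay within 5 kb of 4, Evx2, Mir10b and the long non-coding RNA genes Hoxd3os1 and Haglr, and sonication peaks within 5 kb of 2, Evx2 and Hoxd3os1. Of all 49603 gene records used, non-coding ones included, 3.72% had an MNase peak and 2.25% a sonication peak within 5 kb. Mir10b and Hoxd3os1 overlap Hoxd genes, so their counts largely repeat peaks already counted there. Hoxd3os1, from 74710044 to 74716130, overlaps the start of Hoxd3 and had 85.2% of its span in MNase peaks and 12.3% in sonication peaks. Haglr, from 74748422 to 74762896, fills most of the space between Hoxd3 and Hoxd1 and had 17.8% in MNase peaks and none in sonication peaks. The other 4 had no peak in either list: Lnpk, which shapes the endoplasmic reticulum, Atp5g3, an ATP synthase subunit gene, Mtx2, a mitochondrial import gene, and Hnrnpa3, an RNA-binding protein gene. Lnpk is 88767 bp before Hoxd13 and Mtx2 60670 bp after Hoxd1, and the other two lie farther out.

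Partners and regulators of Hox proteins had peaks at 6 of 18 genes in the MNase list and at 1 of 18 in the sonication list. Among 8 genes of the cofactors that bind DNA with Hox proteins, 3 had an MNase peak within 5 kb, Meis2 with 4 peaks and Pbx3 and Meis1 with 1 each. None had a sonication peak. The widest, at Meis2, was 1350 bp, and peaks covered at most 0.654% of these long genes. Among 10 genes of retinoic acid signalling and the Cdx family, which control Hox expression, 3 had an MNase peak of 600 bp within 5 kb. They were Cdx2, Aldh1a2, which makes retinoic acid, and Cyp26b1, which breaks it down. The Aldh1a2 peak lay outside the span of the gene. Rarb, a retinoic acid receptor gene, had a sonication peak of 300 bp. These counts stand beside the 5.28% and 3.38% of all coding genes, and long genes have more room for a peak.

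Each of the 4 Hox clusters holds paralogues of the Hoxd genes, numbered alike by descent from the same ancestral gene. In groups 13 to 11, the Hoxd genes had the highest MNase coverage with 1 exception. Hoxd13 was covered over 100%, compared with 71.4% of Hoxa13, 26.1% of Hoxb13 and 11.7% of Hoxc13. Hoxd12 was covered over 94.4% and Hoxc12 over 37.8%. The exception was group 11, where Hoxa11 had 100%, Hoxd11 94.0% and Hoxc11 48.3%. In group 9, Hoxd9 and Hoxa9 both had 100%, Hoxc9 83.8% and Hoxb9 46.0%. In group 4, Hoxa4 had 100%, Hoxd4 83.3%, Hoxc4 36.8% and Hoxb4 22.2%. At the anterior end, Hoxd1 and Hoxb1 had 0%. Hoxb1 differed from Hoxd1 in having 1 MNase peak within 5 kb.

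Of cluster length, MNase peaks covered 82.0% in HoxA, 70.1% in HoxD, 60.8% in HoxC and 31.5% in HoxB. Sonication peaks covered 10.8% in HoxA, 4.64% in HoxD, 3.62% in HoxB and 3.37% in HoxC. The HoxB length, 173.9 kb, includes a long stretch without a Hoxb gene, from the end of Hoxb13 at 96196610 to the start of Hoxb9 at 96271330. This lowers the HoxB shares and peaks per length given here, and values without that stretch were not computed. The order of HoxA and HoxD differed when genes alone were counted: the median share of a gene in MNase peaks was 94.4% in HoxD, 92.1% in HoxA, 53.0% in HoxC and 44.2% in HoxB. HoxD had the fewest MNase peaks per length, 2.68 per 10 kb compared with 4.23 in HoxC and 3.16 in HoxB, and 2.75 in HoxA. Sonication peaks were spaced at 0.516 per 10 kb in HoxD, 0.758 in HoxA, 0.346 in HoxC and 0.345 in HoxB. In the posterior groups 13 and 12, sonication peaks lay within 5 kb of Hoxa13 alone. With no value per library, none of these differences between clusters could be tested.

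**Figure D5:**
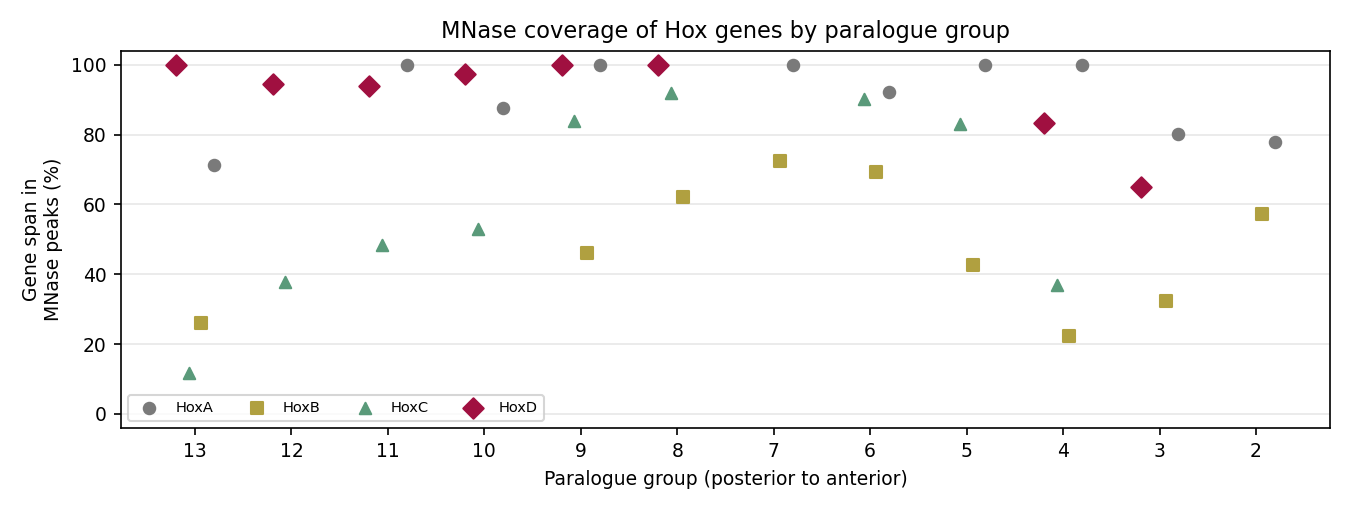
Percent of each Hox gene's span in MNase peaks, plotted by paralogue group from 13 (posterior) to 2 (anterior), with a symbol for each cluster; points of a group are set slightly apart. The HoxD genes of groups 13 to 8 all lie at 94.0% or above, Hoxd4 at 83.3% and Hoxd3 at 64.9%.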

How the data were processed

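Per the submitters' processing notes, bcl2fastq, Bowtie 0.12.9, MACS2 and the build mm10 were used, with no role given, and per the file's own cells the MNase peaks were called in SeqMonk. The deposited lists hold only positions, on a grid of 150 bp with peaks of at least 300 bp; their value column is empty. Groups came from the library titles. The deposited list of 11 broad domains holds none on chromosome 2 and was otherwise not used.

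Peaks were set against RefSeq gene spans (GRCm38.p6, without strand or exons), with an overlap of at least 1 bp. Records in the first 3 Mb of an autosome or the X were left out, which left 49603, 21779 of them coding. Covered bases were counted once. Covered shares and counts are given beside those of all coding genes. The computation was checked on simulated peaks (Python 3.11.15, pandas 2.3.3). Named were the 9 Hoxd genes, their neighbours, their paralogues, listed pathway genes with a peak, each sonication peak of HoxD and its widest MNase peaks; all other names were chosen after their values were seen. The members and lists were chosen with earlier results of these data known. Some listed genes and paralogues are not reported here. Alternatives were other flanks, overlaps, spans and merging of peaks.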

Additional observations from a re-analysis of the deposited data

How the results depend on the processing

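The counts of Hoxd genes with an MNase peak (8 or 9), of promoters in each list and of sonication peaks inside MNase peaks stayed within 1.5 times of the values given, under the alternatives run for them. The 26 MNase peaks of the cluster became 20 with adjoining peaks merged and 11 with gaps of up to 300 bp closed, so their number and widths depend on where stretches were split. MNase coverage was 81.4% for the span from Hoxd13 to Hoxd3 alone and 62.2% with each peak shortened by 150 bp on both sides, and sonication coverage was then 3.10%. With a flank of 10 kb, 8 Hoxd genes had a sonication peak in place of 5, and counting only the 300 bases around a gene start left 2. Removing the narrowest peaks changed none of the values recomputed, since all peaks of the cluster are wider than 300 bp. No paired analysis was possible because each list pools all libraries of an experiment, and for the same reason no replicate could be left out.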

Other observations

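With gaps of up to 300 bp closed, the posterior end of HoxD formed 2 long MNase stretches. The first, of 29.4 kb from 74650651 to 74680050, crossed the edge of the cluster, from beyond Evx2 through Hoxd13 and Hoxd12 into Hoxd11. The second, of 30.3 kb from 74680501 to 74710800, held the rest of Hoxd11 and all of Hoxd10, Hoxd9 and Hoxd8. Between them lay 450 bp without a peak, inside the upstream part of Hoxd11. The longest stretch among the anterior genes was 7.35 kb, in Hoxd3 after Hoxd4.

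Wide MNase peaks were common in HoxD among the widest of the list. Of 72 peaks of at least 2000 bp in the whole list, 13 overlapped the cluster, and of 6 peaks of at least 10000 bp, 2 did. Of all 2840 peaks, 26 did, with 3.93% of the bases of the list. Wide peaks were not counted in the other Hox clusters, of which HoxA had 29 peaks over 82.0% of its length.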
